A study of Mus musculus with 4 samples.

Results

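The very long chain fatty acid elongases are the 7 enzymes Elovl1 to Elovl7, which catalyse the first and rate-limiting step of each round of fatty acid elongation at the endoplasmic reticulum. They were chosen by name: every array probe annotated to 1 of the 7 genes was taken, and probes of a gene were averaged, so that 7 of the 19532 genes tested were described, by 9 of the 41174 probes. RNA came from the skin of Tsk1/+ mice, called Tsk1 transgenic in the titles, which carry a mutated copy of the gene for fibrillin-1 and serve as a model of the tight skin of scleroderma. It was hybridised on 4 two-colour arrays against RNA of a cell line that the labels call UMR; the labels give no age, sex, strain or skin site, and skin of wild-type mice was not analysed here. The arrays, numbered 1-1, 1-2, 2-1 and 2-2 in their titles, form 1 group, so the values set Tsk1/+ skin against cultured cells and hold no effect of the mutation. Nothing in the labels ties the arrays to separate animals, so the p-values describe only how these samples vary, and that variation may be technical; the number of arrays limits the precision.

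Each elongase condenses an activated fatty acid with malonyl-CoA, and a ketoacyl reductase, a dehydratase and an enoyl reductase then complete the lengthening of the chain. The enzymes differ in the chains they accept. Elovl6 extends the palmitate made by fatty acid synthase, Elovl1, Elovl3 and Elovl7 act on saturated and monounsaturated chains, Elovl2 and Elovl5 act on polyunsaturated chains, and Elovl4 makes the ultra-long chains that the epidermis builds into the acylceramides of its water barrier. Mice that lack Elovl4 die after birth from a leaking barrier, and mice that lack Elovl3 have sparse hair and altered sebum.

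All values below are log2 ratios of Tsk1/+ skin over the cell line reference, as deposited but with the sign turned. The labels do not state the log base, which was read from the values. The labels name the dyes and not the numerator, so the likely direction was read from 16 genes of the cornified epidermis, a layer that ordinary cultured lines lack. Their median deposited value was between -4.91 and -6.21 on the 4 arrays, and after turning, positive means higher in skin. Each "higher" rests on that reading, and skin carried Cy3 on all 4 arrays, so that an effect of the dye cannot be separated from the difference in RNA. In bulk skin, the number of cells of a type and the RNA per cell cannot be told apart either. Between 21.4% and 29.1% of the probes of an array hold an exact 0. It is not known whether such a 0 is a measured equality or a missing ratio, so these values are called listed at 0 and are given for each array. A further 22.87% to 24.97% of the probes of an array hold a non-zero value that over 100 probes share, and such repeated values may not be readings of the single gene. Among the elongases, the non-zero values of Elovl2 are of this kind.

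The sign was set from the cornified epidermis list, so its direction is no check of the tissue. Called higher were 11 of its 16 genes (median 5.57), with Kprp, a keratinocyte proline-rich protein, at 8.68 ± 0.93 (SD, n = 4 arrays, here and for each value with ±), and, among the lists that did not set the sign, 9 of 10 basal keratinocyte genes (median 3.52), such as Krt5 at 4.68 ± 0.46. Fat and muscle genes were higher as well, with 9 of 9 white adipocyte genes (median 5.07) and 12 of 12 skeletal muscle genes (median 5.99) called. Of 10 sebaceous gland genes 4 were called higher, of 10 hair follicle genes 0 were higher and 1 lower, and all 14 proliferation genes measured were lower (median -2.51). The hair follicle counts turned over with the processing: Padi3, the gene called lower, lost its call without array 1-2, 2-1 or 2-2, and the keratin Krt32 was called higher without array 1-1 (4.08; limma, adjusted p = 0.00856). Across genes, arrays correlated at Pearson r of 0.867 to 0.918.

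Of the 7 elongases, 5 were called higher in Tsk1/+ skin than in the reference (71.4%) and 0 lower, where a call needs a Benjamini-Hochberg adjusted p from limma under 0.05 and a mean that is 1 or more in size on the log2 scale. Over all genes tested, 11.0% were called higher and 7.51% lower. Each count of called genes in a list, above or below, has these shares as its background. Of the 9 probes tested alone 6 were called higher and 0 lower, beside 9.16% higher and 7.52% lower among all 41174 probes. In order of their means the genes called were Elovl4, Elovl6, Elovl7, Elovl1 and Elovl5, while Elovl3 and Elovl2 did not pass. The median of the 7 means was 2.20, against 0.02 over all 19532 genes.

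**Figure D1:**
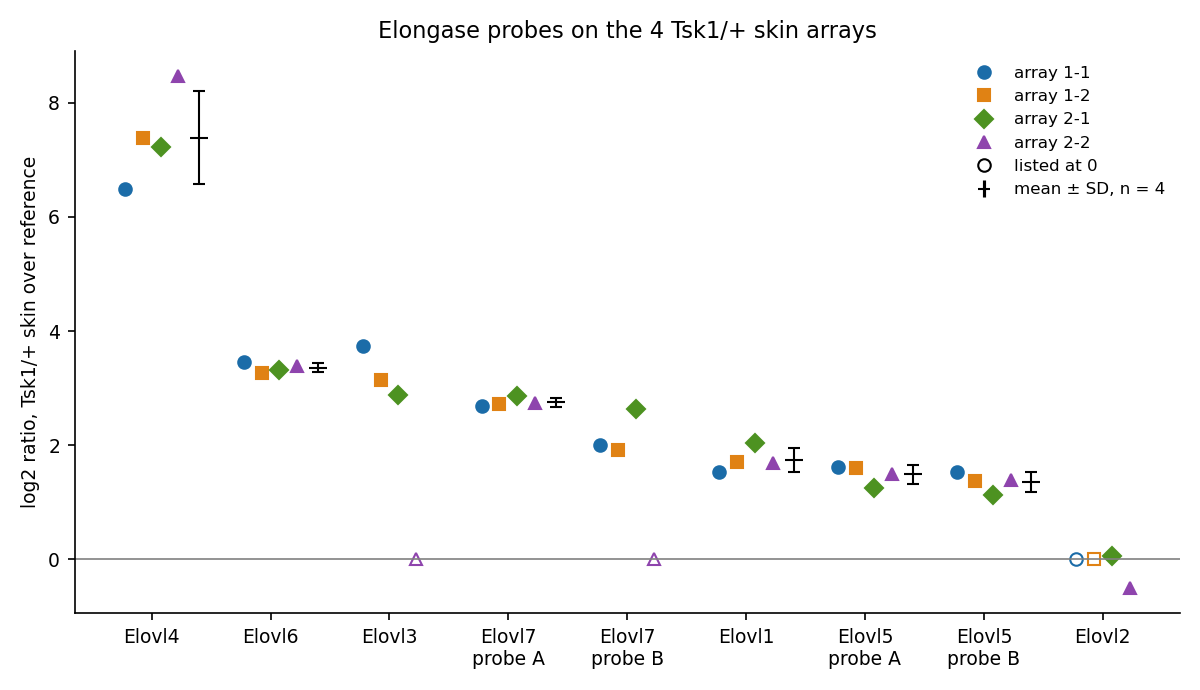
Log2 ratio of Tsk1/+ skin over the cell line reference (vertical axis) for the 9 elongase probes on each of the 4 arrays; open symbols mark values listed at 0, and bars give mean ± SD (n = 4) for probes with no such value. Elovl4 lies above every other elongase on all 4 arrays, Elovl6 varies least among the genes with 1 probe, and Elovl3 and probe B of Elovl7 are listed at 0 on array 2-2.

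Promoter sequences from RefSeq, build GRCm38.p6, were read for 6 of the 7 genes, all but Elovl3, as the 250 bases before an annotated start; Elovl1 and Elovl2 have 2 such windows each. The windows of 3 genes are shown because they belong to the elongase highest in skin, to the lipogenic one with the smallest spread, and to the only one whose window held an E-box. Capitals mark matches to 6 motifs searched on both strands: the TATA box TATAAA, the box CCAAT bound by NF-Y, the GC box GGGCGG, the E-box CACGTG, the nuclear receptor half-site AGGTCA and the sterol element start TCACNCC. A match on the other strand shows as its reverse complement.
Elovl4, chr9:83806306-83806555, minus strand: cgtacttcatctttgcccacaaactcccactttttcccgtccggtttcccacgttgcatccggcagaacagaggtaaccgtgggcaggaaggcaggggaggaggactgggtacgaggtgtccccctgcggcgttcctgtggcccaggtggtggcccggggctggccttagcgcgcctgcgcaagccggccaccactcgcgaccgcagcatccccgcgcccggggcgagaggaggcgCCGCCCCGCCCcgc
Elovl6, chr3:129532136-129532385, plus strand: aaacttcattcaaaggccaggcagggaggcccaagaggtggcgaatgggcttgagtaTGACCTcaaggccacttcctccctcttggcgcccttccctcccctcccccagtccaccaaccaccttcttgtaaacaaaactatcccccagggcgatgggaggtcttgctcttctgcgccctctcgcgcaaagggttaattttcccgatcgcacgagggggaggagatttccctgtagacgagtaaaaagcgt
Elovl5, chr9:77917115-77917364, plus strand: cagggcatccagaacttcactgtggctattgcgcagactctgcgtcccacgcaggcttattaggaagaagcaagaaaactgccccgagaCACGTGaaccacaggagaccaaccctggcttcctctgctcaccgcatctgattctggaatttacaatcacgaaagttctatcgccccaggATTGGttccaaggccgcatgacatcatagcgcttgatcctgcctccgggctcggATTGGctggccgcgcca

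The GC box GGGCGG was found before 4 of the 6 genes (Elovl1, Elovl2, Elovl4 and Elovl7) and in 32.7% of the 32851 promoter windows in the table; the 2 matches of Elovl4 share 1 base. CCAAT was found before Elovl1 and Elovl5 (33.8% of all windows), and the half-site AGGTCA before Elovl1 and Elovl6 (14.0%). The E-box CACGTG was matched in the Elovl5 window alone (6.02% of all windows). The TATA box and the sterol element start were matched in 0 of the 6 (12.4% and 13.4% of all windows). Of the shown windows, that of Elovl4 is 69.6% G or C, that of Elovl6 56.4% and that of Elovl5 55.6%, against a median of 52.4% over all windows. A match is a run of letters and not a shown binding site.

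Elovl4, the elongase of ultra-long barrier lipids, stood at 6.48, 7.38, 7.23 and 8.46 on arrays 1-1, 1-2, 2-1 and 2-2. All 4 values were far above 0, with array 2-2 the highest and array 1-1 the lowest. The mean of 7.39 ± 0.82 corresponds to a 168-fold ratio (95% interval 80.6 to 348; limma, adjusted p = 0.000826) and was the 5th highest of all 19532 genes. Whether the reference signal under this ratio lay above background was not analysed here, since only ratios were used.

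Elovl4 and the cornified epidermis markers had their highest values on the same array. The median of the cornified epidermis list was 4.91, 5.34, 5.14 and 6.21 on arrays 1-1, 1-2, 2-1 and 2-2. Of its 16 genes, 4, 3, 1 and 3 were listed at 0 on these arrays, and without them, a choice made after the values were seen, the medians were 5.72, 5.66, 5.24 and 6.48. Array 2-2 was the highest both ways, while the lowest was array 1-1 with the zeros and array 2-1 without them. Of the 11 genes with no array at 0, 9 were highest on array 2-2, and 5 were lowest on array 1-1 and 4 on array 2-1. The summed ratio of that list ranged from 65.6 to 79.4 over the arrays, and Flg was listed at 0 on all 4. Array 2-2 was also the highest for the medians of basal keratinocytes (3.98, against 3.41 to 3.51 on the others) and skeletal muscle (6.64, against 5.55 to 6.10). Of the 186 genes with a mean of at least 5, a threshold chosen after the values were seen, 119 were highest on array 2-2, 45 on array 1-1 and 11 on each of the others, while Elovl4 was lowest on array 1-1. The part of these differences in the spread of Elovl4 was not tested.

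**Figure D2:**
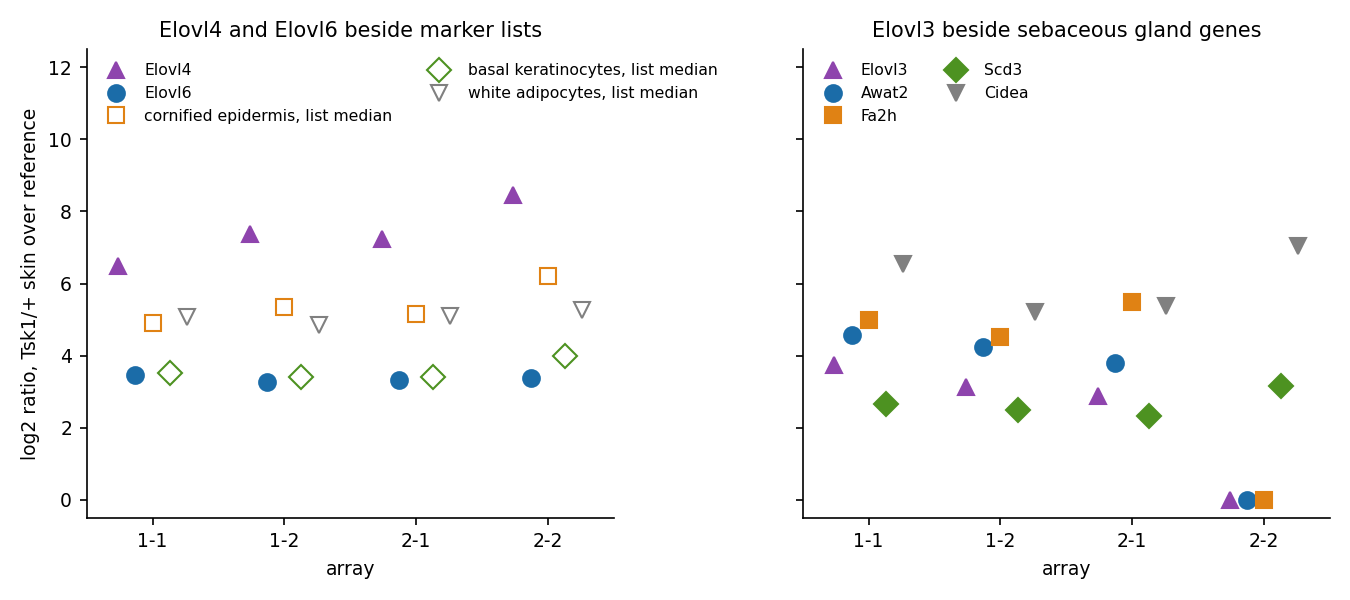
Log2 ratio of Tsk1/+ skin over the reference (vertical axis) by array. On the left, Elovl4 and the cornified epidermis median are both highest on array 2-2, and the median is lowest on array 1-1, where 4 of the 16 genes are listed at 0, while Elovl6 stays between 3.27 and 3.46; on the right, Elovl3, Awat2 and Fa2h are listed at 0 on array 2-2, where Scd3 and Cidea have their highest values.

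Elovl6, which turns palmitate into stearate, stood at 3.46, 3.27, 3.32 and 3.38. The 4 values lay within 0.19 of each other, the narrowest range among the 7 gene averages. Probe A_52_P354682 of Elovl7 alone was as narrow, from 2.68 to 2.87. Their mean of 3.36 ± 0.08 is a 10.3-fold ratio (95% interval 9.48 to 11.1; limma, adjusted p = 0.000211), and 16.7% of all genes had a smaller SD.

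Elovl3, an elongase known from sebaceous glands, hair follicles and cold-activated brown fat, had log2 ratios of 3.74, 3.13 and 2.88 on the first 3 arrays (1-1, 1-2 and 2-1), while array 2-2 listed it at 0. The 3 values are held by 14, 6 and 6 probes of their array. With the 0 kept as a value it did not pass (limma, adjusted p = 0.0748); without array 2-2 the mean was 3.25, a 9.53-fold ratio, and it did (adjusted p = 0.00945). The 3 non-zero values had an SD of 0.44, against a median SD of 0.20 between the 4 arrays over all genes, and 1 array held a 0.

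Other sebaceous gland genes split on the same array. Awat2, a wax synthase of sebum, stood at 4.58, 4.25 and 3.81 on arrays 1-1, 1-2 and 2-1, and Fa2h, the fatty acid 2-hydroxylase, at 4.99, 4.52 and 5.49; both were listed at 0 on array 2-2, and both are named here after their values were seen. Cidea, a lipid droplet protein of sebocytes and brown fat, was highest on array 2-2 (7.06, against 5.22 to 6.54 on the others), as was the sebaceous desaturase Scd3 (3.15, against 2.34 to 2.66). Of the 10 sebaceous gland genes, 4 were listed at 0 on array 2-2 and 1 or 2 on each other array; Dgat2l6 was listed at 0 on all 4, and the summed ratio of the list ranged from 15.9 on array 2-2 to 24.7 on array 1-1.

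Zeros of this kind were counted after the Elovl3 values were seen. Among probes with a log2 ratio of at least 2 on the other 3 arrays, 7.08% of 1469 were listed at 0 on array 2-2 and 6.82% of 1495 on array 1-1, against 1.33% of 1357 on array 1-2 and 1.08% of 1394 on array 2-1. For brown fat, another known site of Elovl3, 5 of 8 marker genes were called higher. These were Cox8b, a cytochrome c oxidase subunit (7.29 ± 0.53), Cidea (6.05 ± 0.89), Cox7a1 (4.07 ± 0.24), Prdm16 (3.345 ± 0.33) and Dio2 (2.06 ± 0.25). All 12 skeletal muscle genes were called higher too, and which tissue gave the signals of these 5 genes was not tested. Ppargc1a (mean 0.90) and Otop1 (mean 0.01, listed at 0 on 3 arrays) were not called. Ucp1, the uncoupling protein that defines brown fat, is listed at 0 on 3 arrays, and its 0.16 on array 1-1 is a value that 2785 probes share. Hair follicle genes differed in which array was high. Krt71 and Krt27 stood at 6.21 and 5.01 on array 1-1, where Elovl3 was highest too, and at no more than 1.58 and 0.29 on the others. The values of Krt71 on arrays 1-2 and 2-2 and of Krt27 on array 1-2 are repeated values. On arrays 2-1 and 2-2 Krt27 was listed at 0. Krt32 went the other way: array 1-1 listed it at 0, and the others gave 4.21, 4.55 and 3.48. Also apart was Tchh, for the hair root sheath protein trichohyalin, non-zero on array 2-1 alone (1.87). Its 2 probes had means of -0.10 and 1.03, and the lower probe held a repeated value on that array (-0.40, shared by 1065 probes). What part hair or gland content has in the Elovl3 values was not tested.

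Elovl7, an elongase of saturated and monounsaturated chains, was read by 2 probes that disagreed on 1 array. Probe A_52_P354682 (probe A in the plot of elongase probes) stood at 2.68, 2.72, 2.87 and 2.74, with a mean of 2.75 ± 0.08 and a probe-level adjusted p of 0.000387 (limma). Probe A_51_P189594 (probe B) gave 2.01, 1.92 and 2.63 on the first 3 arrays, and array 2-2 listed it at 0 (adjusted p = 0.105); these 3 values are held by 62, 24 and 24 probes of their array. The average of both probes was 2.35, 2.32, 2.75 and 1.37, and Elovl7 as a gene was called higher (mean 2.20, adjusted p = 0.00614). With exact zeros as missing its mean was 2.54. Probe A was above probe B on all 4 arrays, by 0.24 on the array where they were closest.

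Elovl1, which makes the saturated very long chains of sphingolipids, stood at 1.53, 1.71, 2.03 and 1.69. Array 2-1 was the highest and no array was near 0. The mean of 1.74 ± 0.21 is a 3.34-fold ratio (95% interval 2.75 to 4.04; limma, adjusted p = 0.00101).

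Elovl5, the broadly expressed elongase of polyunsaturated chains, stood at 1.57, 1.49, 1.19 and 1.44 as the average of its 2 probes. Array 2-1, the highest for Elovl1, was here the lowest. The mean of 1.42 ± 0.17 is a 2.68-fold ratio (95% interval 2.31 to 3.12; limma, adjusted p = 0.000940). The probes differed by 0.08 to 0.23 on an array, in the same direction on all 4.

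Elovl2, which carries polyunsaturated chains further and is known from liver, testis and retina, was listed at 0 on 2 arrays and held repeated values on the others: 0.07 on array 2-1, which 2422 probes share, and -0.50 on array 2-2, which 527 share. None of the 4 values is thus particular to Elovl2, and the gene did not pass (limma, adjusted p = 0.526). Its 95% interval, with the zeros kept, ran from -0.45 to 0.23. Because that interval is built from these shared values, it cannot show that Elovl2 is alike in skin and reference.

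The ends of the order separated on all 4 arrays. Elovl4 was above Elovl6 on 4 of 4 arrays, by 4.03 ± 0.85, and Elovl5 above Elovl2 on 4 of 4 arrays, by 1.53 ± 0.34. In both pairs the arrays did not overlap. The Elovl2 values are listed at 0 or repeated values, so the lower separation does not place Elovl2 itself. Each of the other neighbours in the order (Elovl6 and Elovl3, Elovl3 and Elovl7, Elovl7 and Elovl1, Elovl1 and Elovl5) changed places on 1 of the 4 arrays, and the arrays overlapped. The places of Elovl3 with Elovl7 and of Elovl7 with Elovl1 changed on array 2-2, where Elovl3 and probe B of Elovl7 are listed at 0 and probe A, at 2.74, lay above Elovl1. The difference was 0.46 ± 0.52 between Elovl7 and Elovl1 and 0.31 ± 0.38 between Elovl1 and Elovl5, both smaller than its SD. Without array 2-2, left out after its zeros were seen, Elovl3 lay above Elovl7 by 0.78 ± 0.63 and Elovl7 above Elovl1 by 0.72 ± 0.10, on 3 of 3 arrays each. With 4 arrays an exact two-sided sign-flip test cannot go below p = 0.125, so none was run. These are ratios to the reference and give no order of transcript levels.

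**Figure D3:**
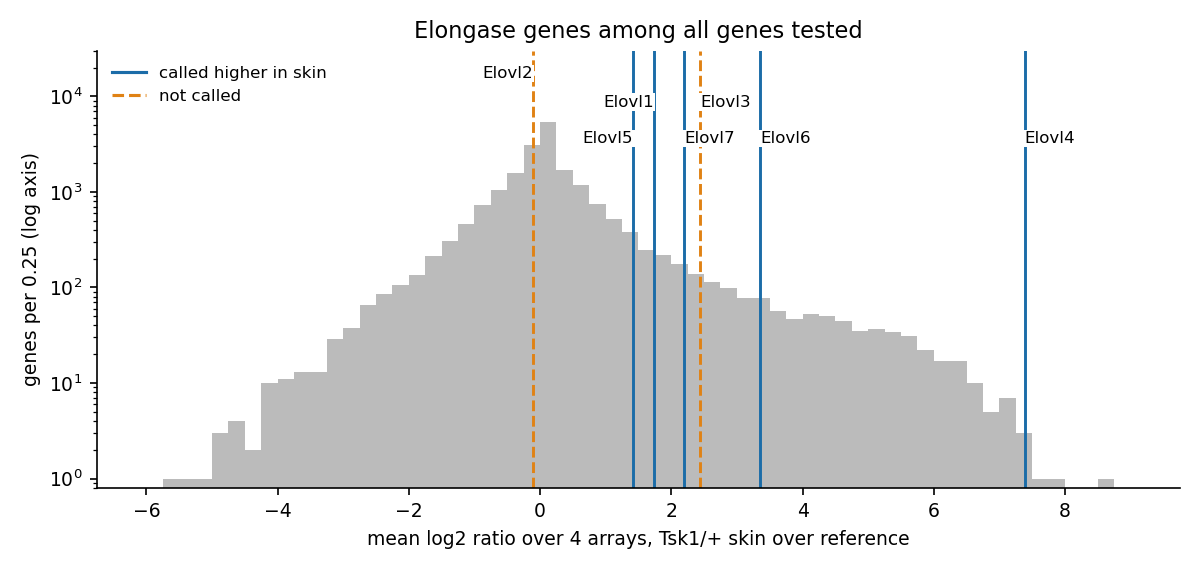
Histogram of the mean log2 ratio of Tsk1/+ skin over the reference (horizontal axis) for 19532 genes, with the number of genes on a log axis and a line for each elongase. Of the 7 lines, 6 lie right of the bulk of genes around 0; Elovl4 at 7.39 lies near the right end, and Elovl2 lies among the bulk.

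Genes with the most similar values over the 4 arrays were found by the root mean square difference of the 4 log2 ratios. For Elovl4 the nearest were Ano9, of the anoctamin family (0.33), Clca3a1, of the family of chloride channel accessory proteins (0.66), and the type I keratin Krt23 (0.67). Ano9 stood at 6.73, 6.93, 7.04 and 8.08, also highest on array 2-2 and lowest on array 1-1. For Elovl6 they were Depp1 (0.09), the alpha-globin gene Hba-a2 (0.09), whose near-identical copy the probe may not tell apart, and Cyp26b1, an enzyme that degrades retinoic acid (0.11). For Elovl7, whose 1.37 on array 2-2 averages in the 0 of probe B, they were Fam160a1 (0.24), Thsd1 (0.25) and Chmp4c (0.25), for Elovl1 the chemokine gene Ccl9 (0.05), Rnpepl1 (0.08) and Igfbp6 (0.08), and for Elovl5 Asb5, Triap1 and Pld1 (0.04 to 0.05).

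Of 7 genes for the enzymes that complete the elongation cycle 1 was called higher and 0 lower, with a median of 0.31. That share of 14.3% lies near the 11.0% of all genes called higher. The dehydratase Hacd2 stood at 2.14, 1.81, 1.51 and 1.71 (mean 1.79 ± 0.26; limma, adjusted p = 0.00149), and its 2 probes had means of 1.25 and 2.33. Hacd3, of the same family, averaged 0.91 ± 0.19 (adjusted p = 0.00359), below the minimum size for a call. Hacd1 had a mean of 0.31 over a probe listed at 0 on all 4 arrays and a probe with a mean of 0.63. Hacd4 had a mean of 0.30, with 3 probe means from -0.25 to 0.90. Hsd17b12, the ketoacyl reductase, stood at 0.60, 0.46, -0.29 and 0.20, and its 2 probes, with means of -0.38 and 0.87, lay on opposite sides of 0; 3 of the 4 values of the lower probe are repeated values. Tecr, the enoyl reductase, stood at 0.94, 0.92 and 0.83 on arrays 1-2, 2-1 and 2-2 and at 0.09 on array 1-1 (adjusted p = 0.0504). The related Tecrl was listed at 0 on array 1-2, and its other values, from -0.40 to 0.50, are each repeated values, shared by 1065 to 2166 probes. The difference in the share called between elongases and their partners was not tested.

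**Figure D4:**
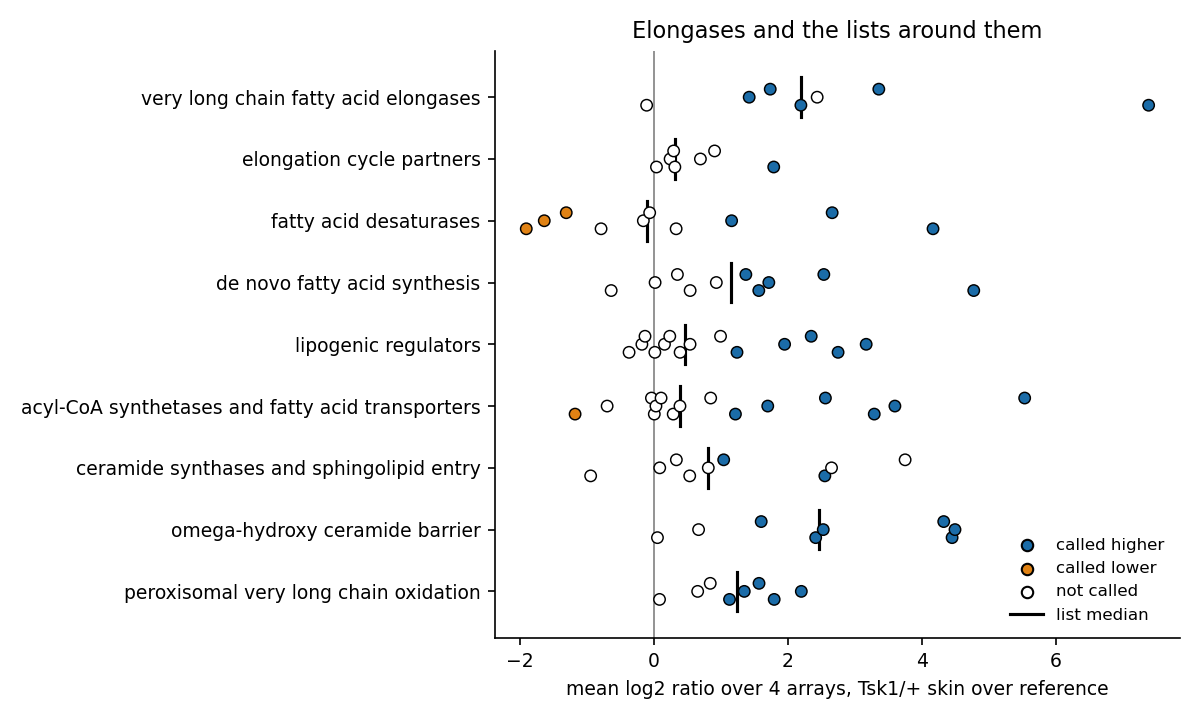
Mean log2 ratio of Tsk1/+ skin over the reference (horizontal axis) for each gene of the elongases and of 8 lists around them, 1 list per row, with points coloured by call and a bar at the list median. The elongase median of 2.20 and the omega-hydroxy ceramide barrier median of 2.47 lie farthest right, and the desaturase median of -0.11 lies left of 0.

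Desaturases, which introduce double bonds into lipid chains, went both ways: of 10, 3 were called higher and 3 lower. Higher were Scd1, the main stearoyl-CoA desaturase of skin (4.17 ± 0.18; limma, adjusted p = 0.000283), Scd3 (2.66 ± 0.35) and the ceramide desaturase Degs2 (1.16 ± 0.51). Degs2 stood at 0.39 on array 1-2, a repeated value, and lost its call without array 1-1, 2-1 or 2-2 (1.05 to 1.09). Lower were Scd2 (-1.91 ± 0.11) and both front-end desaturases of polyunsaturated synthesis. Fads1 stood at -1.47, -1.17, -1.49 and -1.10 (mean -1.31 ± 0.20, adjusted p = 0.00166) and Fads2 at -1.47, -1.64, -1.98 and -1.46 (mean -1.64 ± 0.24, adjusted p = 0.00152). Elovl5, which works between these 2 enzymes, was higher in skin on all 4 arrays, while both desaturases were lower on all 4.

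De novo synthesis supplies the palmitate for Elovl6. Of 10 genes 5 were called higher and 0 lower (median 1.15): Thrsp, a lipogenic protein of fat (4.78 ± 0.30), Fasn, fatty acid synthase (2.54 ± 0.03; limma, adjusted p = 0.000205), Acacb, an acetyl-CoA carboxylase (1.72 ± 0.13), malic enzyme Me1 and Mlycd. The 2 Acacb probes disagreed: 1 was listed at 0 on all 4 arrays and the other had a mean of 3.43. Not called were Acss2 (0.93), Acly (0.54) and Acaca (0.35), whose probe means differed widely, and Slc25a1 (0.02). Mcat, of mitochondrial fatty acid synthesis, was not called either and had the most opposite mean (-0.64 ± 0.10). With exact zeros and repeated values as missing, 8 genes of the list were called higher.

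Of 14 regulators of lipogenesis measured, 5 were called higher and 0 lower (median 0.47). The oxysterol receptor Nr1h3 stood at 3.81, 2.76, 2.78 and 3.33 (mean 3.17 ± 0.50; limma, adjusted p = 0.00173), Ppara at 2.35 ± 0.34 and Mlxipl, the carbohydrate response factor ChREBP, at a mean of 2.75, with probe means of 0.83 and 4.68. Srebf1, whose product drives Elovl6 and other lipogenic genes, averaged 0.996 ± 0.10 (adjusted p = 0.000774), just under the minimum size (1.04, and called, without array 1-2), and Srebf2, the regulator of sterol synthesis, -0.37 ± 0.17.

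Acyl-CoA synthetases and transporters activate and carry the chains. Of 15 measured, 6 were called higher and 1 lower (median 0.39). Fabp4, a fatty acid binding protein of fat cells, averaged 5.54 ± 0.75, with 3 probe means from 2.86 to 7.70. Acsbg1, an acyl-CoA synthetase, averaged 3.60 ± 0.20 and Slc27a3, of the fatty acid transport family, 3.29 ± 0.33. Acsl3 was lower (-1.18 ± 0.16). White adipocyte markers, among them Fabp4, were higher on all 4 arrays, with a summed ratio of 42.5 to 46.1, and their part in these values was not tested.

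Very long chains enter ceramides through ceramide synthases. Of 9 genes measured at that step 2 were called higher and 0 lower (median 0.81): Cers4 (2.55 ± 0.28; limma, adjusted p = 0.000807) and Sptlc1, a subunit of serine palmitoyltransferase (1.04 ± 0.25). Cers2 had the most opposite mean (-0.94 ± 0.22). Cers3, the ceramide synthase that uses the products of Elovl4 in epidermis, was not analysed here. Of 8 measured genes of the omega-hydroxy ceramide barrier, 6 were called higher (median 2.47). Tgm1, which cross-links the cornified envelope, averaged 4.50 ± 0.30, the lipoxygenase Aloxe3 4.45 ± 0.47 and Cyp4f39, a fatty acid omega-hydroxylase, 4.33 ± 0.42 (limma, adjusted p = 0.000401 to 0.000759). Cyp4f39 stood at 4.51, 3.86, 4.13 and 4.81, with array 2-2 the highest, as for Elovl4, but array 1-2 and not 1-1 the lowest. Abhd5, which aids the transfer of linoleate to the acylceramide, averaged 1.60 ± 0.18 (adjusted p = 0.000884).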

How the data were processed

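The 4 arrays carried Tsk1/+ skin RNA in Cy3 and the cell line reference in Cy5, per the labels. The authors deposited 1 log2 ratio per probe and array; how they corrected the background and normalized, which log base they took and which channel was the numerator is not stated in the labels. Base 2 was read from the values: among the 40 commonest non-zero values of each array, 21 of 3120 pairs lay at 2 times the log2 of 2 (tolerance 0.001), while the same count was 2 for natural logs and 4 for base 10. Each column's median was 0, and how the arrays were centred is unknown. Probes with 1 symbol (32664; 45 had several and 8465 none) were named through the platform annotation, 32524 of them matched to GRCm38.p6 by Entrez ID, and averaged per gene. Genes with values on at least 3 arrays went into limma 3.58.1 under R 4.3.3 (lmFit, eBayes, mean against 0, two-sided, Benjamini-Hochberg); the code was tested on simulated data. The members and the 16 lists were chosen with earlier results of these data known. Named were all elongases and cycle partners, a few textbook partners, from each list called genes among the 3 largest in size and the 1 most opposite, and the 3 nearest genes to each elongase with no gene average at 0; some listed markers are given only as counts. Outside that rule, Degs2, Me1, Mlycd, Fa2h, Awat2, Dgat2l6, Flg, Ucp1, Krt71, Krt27, Tchh, Acaa1a and Acaa1b were named after their values were seen. So were Acss2, Acly, Acaca, Slc25a1, Ppargc1a, Otop1, Prdm16 and Dio2. Figures used matplotlib 3.10.9 in Python 3.11.15.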

Additional observations from a re-analysis of the deposited data

Results flagged for a closer look

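Among 89 genes whose 4 arrays were compared, 11 had 1 array far from the other 3. Chance gives about 1 in 20, but the 89 hold genes named after their values were seen, Degs2 among them. The 11 thus cannot be set against that share. For Tchh and Ucp1, listed at 0 on 3 arrays, any other value would have been flagged. Some of the lower values of Krt71 and Krt27 are repeated values. Elovl2 stood at -0.50 on array 2-2, below 0.07 on array 2-1 and the zeros listed on arrays 1-1 and 1-2; each of the 4 is a value that 527 or more probes of its array hold. Tecr, the enoyl reductase of the elongation cycle, stood at 0.094 on array 1-1, below 0.83 to 0.94 on the other 3. Mlxipl stood at 3.93 on array 1-2, above 2.22 to 2.46 on the others; 3 values of its 2 probes were listed at 0. Perp, a desmosome protein, stood at 5.66 on array 2-1, against 5.54 to 5.56 on the others. Birc5, a mitotic gene, stood at -2.38 on array 1-1, against -2.87 to -2.96 on the others. Degs2 stood at 0.39 on array 1-2, below 1.37 to 1.504 on the others, and both 0.39 and 1.37 are repeated values. Of genes named after their values were seen, Awat2 was listed at 0 on array 2-2 (3.81 to 4.58 on the others), Krt71 and Krt27 stood at 6.21 and 5.01 on array 1-1 (at most 1.58 and 0.29 on the others), Tchh stood at 1.87 on array 2-1 and Ucp1 at 0.16 on array 1-1, both listed at 0 elsewhere.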

How the results depend on the processing

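Elovl1, Elovl4, Elovl5 and Elovl6 kept their direction and call under all alternatives run (14, 14, 15 and 14), and the number of elongases called higher was 4 to 6. Elovl3 was called without array 2-2, with exact zeros as missing, and with zeros and repeated values as missing (3.25 each, adjusted p = 0.00945, 6.70e-05 and 7.21e-06), and with a random block for the first title number (2.44, adjusted p = 0.0470; the estimated correlation was -0.31, so the block adds no support); leaving out each array gave 2.01 to 3.25. Elovl7 lost its call with limma's treat against a 2-fold change (2.20, adjusted p = 0.0597) and on probe A_51_P189594 alone (1.64, adjusted p = 0.105). Leaving out each array moved Elovl2 between -0.17 and 0.022 and Tecrl between -0.12 and 0.19, neither called. With treat, 1338 genes were higher and 694 lower, against 2150 and 1466. The de novo synthesis list had 8 genes higher, against 5, without zeros and repeated values, and the sebaceous list 7, against 4, without zeros; Sptlc1 fell below the minimum size without array 2-1 (0.92), and Mlxipl lost its call when arrays sharing a first title number were averaged (adjusted p = 0.0565). Srebf1 was called without array 1-2 (1.04) and with quantile normalization (1.01), and Cers2 without array 1-2 (-1.01). The cause was not tested. With treat, Fads1, Acsl3, Mlxipl, Padi3 and Acaa1a lost their calls (adjusted p = 0.130, 0.287, 0.0504, 0.589 and 0.659), as did Sptlc1 and Degs2 (1 each), and counts became 3 higher among lipogenic regulators (against 5), 3 among peroxisomal genes (against 5), 1 at the ceramide synthase step (against 2) and 0 lower among synthetases and transporters (against 1). When arrays sharing a first title number were averaged, Degs2 and Padi3 were not called (adjusted p = 0.0904 and 0.0572), and without 1 array Degs2 was not called in 3 of 4 cases (1.05 to 1.09), nor was Padi3 (-1.43 to -1.70). Krt32, Awat2 and Fa2h were called with zeros as missing (4.08, 4.21 and 5.003) and with the random block (3.06, 3.16 and 3.75). No paired analysis was possible because the arrays form 1 group. Whether a signal lay above background is unknown, since only ratios were used.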

Other observations

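Peroxisomes shorten the chains that elongases make. Of 8 genes of that pathway measured, 5 were called higher in Tsk1/+ skin and 0 lower (median 1.24), against 11.0% of all genes called higher. Ehhadh, a bifunctional enzyme of peroxisomal beta-oxidation, stood at 2.25, 2.79, 1.94 and 1.83 on arrays 1-1, 1-2, 2-1 and 2-2 (mean 2.20 ± 0.43; limma, adjusted p = 0.00285). Hsd17b4, the other bifunctional enzyme, averaged 1.80 ± 0.38 (adjusted p = 0.00349) and lost its call with limma's treat against a 2-fold change (adjusted p = 0.0561). Scp2, the thiolase and sterol carrier, averaged 1.57 ± 0.24 (adjusted p = 0.00167). The thiolases Acaa1a and Acaa1b, which near-identical sequence may make hard to tell apart, averaged 1.13 ± 0.19 and 1.35 ± 0.15; Acaa1a also lost its call with treat (adjusted p = 0.659).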
